A study of Homo sapiens with 6 samples.

Results

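The 37 genes described here are direct transcriptional targets of p53, each followed on its own in wild strain TPC-1 cells and in TPC-1 cells that overexpressed *RRM2*. They are the p53 targets that remain when the inhibitors of cyclin-dependent kinases, *MDM2*, ribonucleotide reductase and the BCL2 and death receptor families are set aside, and they were found by their symbols among the 58735 genes of the expression table. Of the 37 genes, 35 had enough signal to be tested, and *CDIP1* and *SPATA18* did not.

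TPC-1 cells are an established line from a human papillary carcinoma of the thyroid. Wild strain TPC-1 (WT in the labels) and *RRM2*-OE-TPC-1 were each measured by RNA sequencing in 3 libraries, which the methods call biological triplicates. *RRM2*-OE-TPC-1 cells had been infected with a lentivirus that carries full-length *RRM2* behind a CMV promoter (vector LV18), and infected cells were selected with puromycin. The genotype labels of *RRM2*-OE-TPC-1 replicates 2 and 3 read RRM3 and RRM4, whereas the titles of both give RRM2. The sources do not say that the wild strain carried an empty vector or was grown in puromycin, nor whether the overexpressing line is a pool or a clone. Infection, selection and *RRM2* itself therefore cannot be told apart in any difference given here. In RNA from whole cultures, a change in the share of cells that express a gene and a change in the RNA of each cell cannot be told apart either.

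The p53 protein is a transcription factor that is kept scarce in unstressed cells by MDM2, a ubiquitin ligase that is itself a p53 target, and that is stabilised when DNA is damaged or replication stalls. It binds a response element made of a pair of short half-sites and raises transcription of genes that halt the cell cycle, repair DNA, start or restrain apoptosis, and adjust metabolism. RRM2 is the small subunit of ribonucleotide reductase, which makes the deoxynucleotides used for DNA synthesis.

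*RRM2* had 8.92 ± 0.346 FPKM in TPC-1 and 48.4 ± 1.78 FPKM in *RRM2*-OE-TPC-1 (SD, n = 3), a log2 fold change of 2.43 ± 0.0442 (SE; limma, adjusted p = 1.11e-08). FPKM is a count of fragments scaled to gene length and to sequencing depth. The libraries held 14317091 to 17084067 reads on genes. Of the thyroid markers, *PAX8* and *FOXE1* were present, and *TG*, *TSHR*, *SLC5A5* and *NKX2-1* were at or near 0. Of 5 epithelial markers, *KRT18* and *KRT8* were present and *EPCAM*, *CDH1* and *KRT19* were at or near 0. The 7 thyroid markers summed to 73.7 ± 1.93 FPKM in TPC-1 and 61.8 ± 1.85 FPKM in *RRM2*-OE-TPC-1, and the epithelial markers to 43.9 ± 1.98 and 88.9 ± 1.34 FPKM (SD, n = 3). *KRT18* was called higher (41.2 to 85.2 FPKM, log2 fold change 1.05, limma, adjusted p = 2.74e-07). The summed level of the 4 leukocyte markers was 0 in the TPC-1 libraries and 0.00637 to 0.0355 FPKM in *RRM2*-OE-TPC-1, and that of the 4 fibroblast markers was 0.820 to 0.965 and 0.409 to 0.577 FPKM, with *COL1A2* and *DCN* at 0. The 4 endothelial markers summed to 0.873 to 1.05 FPKM in TPC-1 and 0.0667 to 0.115 FPKM in *RRM2*-OE-TPC-1, and *PECAM1* carried the difference while *KDR* was at 0. The part that these marker differences have in the results below was not tested.

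Most of the p53 targets were higher in *RRM2*-OE-TPC-1. Of the 35 tested genes, 13 were called higher, and 1, *TP53I11*, was called lower. A call required an adjusted p of 0.05 or less in limma and a log2 fold change of at least 1 in size. The scale was log2(FPKM + 0.1). The p-values set the group difference against the spread of the 3 libraries within each group. Variation between independently infected lines is not part of them. Among all 13621 tested genes, 4.48% were called higher and 6.97% lower. Adjusted p alone was passed by 31 of the p53 targets upward and 2 downward, beside 34.9% and 32.7% of all tested genes. In 31 of the 35 genes every *RRM2*-OE-TPC-1 library lay above every TPC-1 library, a pattern that 37.3% of all tested genes showed. For any single gene, an exact permutation test of 3 libraries against 3 could not go below a two-sided p of 0.1.

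The median log2 fold change of the 35 genes was 0.80, beside 0.01 for all tested genes. *TIGAR* reached the minimum level for testing only in *RRM2*-OE-TPC-1 and so could hardly have been tested without being higher there. Without it, 12 of 34 genes were called higher, 30 passed the adjusted p upward, and the median was 0.74. Summed over all 37 genes, expression was 513 ± 9.90 FPKM in TPC-1 and 762 ± 10.9 FPKM in *RRM2*-OE-TPC-1 (SD, n = 3). The coefficient of variation between replicates had a median over these genes of 5.98% for TPC-1 and 4.21% for *RRM2*-OE-TPC-1.

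**Figure D1:**
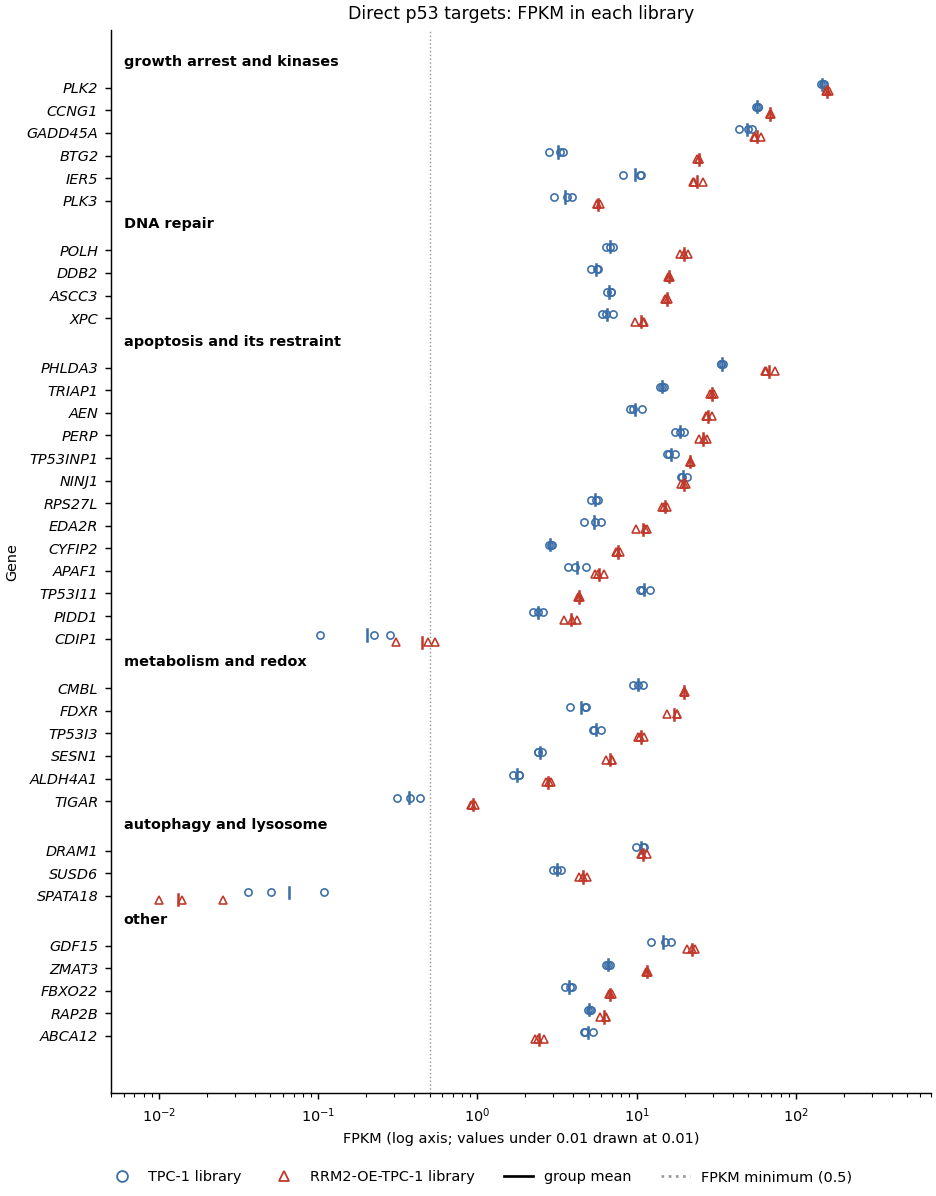
FPKM of each of the 37 p53 targets in each library, on a log axis and grouped by role. Circles are TPC-1 libraries, triangles are *RRM2*-OE-TPC-1 libraries, short vertical lines are group means and the dotted line is the minimum of 0.5 FPKM. The groups are separate for most genes, with the triangles on the right except for *TP53I11*, *ABCA12* and *SPATA18*, and *SPATA18* and *PLK2* mark the low and high ends of the levels.

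Promoter sequence was available from RefSeq (GRCh38.p14) for 31 of the 37 genes, as windows of 300 bases, 250 before and 50 after each annotated start. *TP53INP1*, *PHLDA3*, *GADD45A*, *FBXO22*, *ASCC3* and *CMBL* had no entry. The windows were searched for a pair of adjacent p53 half-sites of 10 bases each. The core of each half-site (C, then A or T, then A or T, then G) had to be intact, and up to 3 mismatches were allowed elsewhere. The motif reads the same on both strands. It was found in 4 of the 31 genes, beside 143 of 27305 gene symbols with a window (0.524%). With up to 2 mismatches it was found in 1 gene, *AEN*, beside 0.201% of symbols. The sites are printed because they are the matches found in the windows used. The genes were listed as p53 targets beforehand, so the share beside that of other symbols is a description. Each line runs from 5′ to 3′ on the strand of the gene, with the paired half-sites in capitals.
AEN: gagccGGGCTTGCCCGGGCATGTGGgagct
SESN1: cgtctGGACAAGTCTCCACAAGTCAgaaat
RPS27L: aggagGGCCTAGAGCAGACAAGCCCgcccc
GDF15: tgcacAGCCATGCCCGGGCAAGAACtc

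The *AEN* stretch is chr15:88621301-88621330 on the plus strand and the *RPS27L* stretch chr15:63157522-63157551 on the minus strand. The *SESN1* stretch is chr6:109009013-109009042 on the minus strand and the *GDF15* stretch chr19:18386181-18386207 on the plus strand. Counted from the RefSeq start, the capitals lie at −34 to −15 in *AEN*, −49 to −30 in *SESN1*, −69 to −50 in *RPS27L* and 29 to 48 in *GDF15*. In GENCODE 29, whose gene spans are wider, all 4 sites lie inside the gene. The 20 bases are exonic in *AEN*, *RPS27L* and *GDF15* and intronic in *SESN1*, whose start here is internal to the gene. A match is a description of the letters and was not tested for binding, and response elements outside these windows were not searched.

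Among the genes of growth arrest and the stress kinases, all 6 were tested and 2 were called higher, *BTG2* and *IER5*. All 6 passed the adjusted p upward. Of all tested genes, 4.48% were called higher and 34.9% passed the adjusted p upward. *BTG2*, an antiproliferative factor that recruits mRNA deadenylases (chr1:203305491-203309602, plus strand), had 3.30, 2.80 and 3.46 FPKM in TPC-1 and 24.7, 24.0 and 24.7 FPKM in *RRM2*-OE-TPC-1. The groups were far apart and the *RRM2*-OE-TPC-1 libraries nearly equal. Its log2 fold change of 2.91 ± 0.0754 (SE; limma, adjusted p = 5.43e-08), or 7.50-fold, was the largest of the 35 genes and ranked 31 among the 13621 tested genes. *IER5*, an immediate early gene (chr1:181088712-181092899, plus strand), had 10.5, 8.22 and 10.6 FPKM in TPC-1 and 26.0, 22.9 and 22.4 FPKM in *RRM2*-OE-TPC-1. TPC-1 replicate 2 was the lowest of its group and the groups did not overlap (log2 fold change 1.28 ± 0.103, limma, adjusted p = 1.38e-05). The interval of this change reached down to 1.04, and a limma test against a change of 1 did not call it.

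The other genes of this group were already well expressed in wild strain cells, or moved less. *PLK2* and *PLK3* encode polo-like kinases that respond to stress. *PLK2* was the most abundant of the 37 genes, at 147 ± 2.99 FPKM in TPC-1 and 157 ± 3.75 FPKM in *RRM2*-OE-TPC-1 (SD, n = 3), with a log2 difference of 0.10 that passed the adjusted p (limma, 0.0302). *PLK3* was far lower, at 3.52 ± 0.468 and 5.71 ± 0.137 FPKM, with a log2 fold change of 0.69. *CCNG1*, the cyclin that binds a phosphatase subunit, went from 57.1 ± 1.10 to 68.7 ± 0.452 FPKM (log2 0.27). *GADD45A*, a stress sensor that binds PCNA, went from 49.0 ± 4.52 to 56.6 ± 3.22 FPKM (log2 0.21, limma, adjusted p = 0.0285). All 4 were higher by adjusted p in the fit reported here and short of the fold threshold. The adjusted p of *PLK2* did not hold with a replicate block (limma, 0.0787), without the filter on low values (0.0680), with library totals as the scale (0.245), with voom (0.199), or without TPC-1 replicate 2 (0.0588), TPC-1 replicate 3 (0.112), *RRM2*-OE-TPC-1 replicate 2 (0.0755) or *RRM2*-OE-TPC-1 replicate 3 (0.117). That of *GADD45A* did not hold without the filter (limma, 0.0936), with library totals (0.0831), or without TPC-1 replicate 2 (0.0638) or *RRM2*-OE-TPC-1 replicate 1 (0.0867).

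The 4 DNA repair genes were all higher by adjusted p, and 3 of them were called, beside 34.9% and 4.48% of all tested genes. *POLH* encodes DNA polymerase eta, which copies past ultraviolet lesions (chr6:43576150-43615660, plus strand). It had 6.40, 6.79 and 7.14 FPKM in TPC-1 and 19.7, 18.8 and 21.0 FPKM in *RRM2*-OE-TPC-1 (log2 fold change 1.53 ± 0.0581, SE). *DDB2*, the damage recognition factor of nucleotide excision repair (chr11:47214465-47239240, plus strand), had 5.73, 5.20 and 5.66 FPKM in TPC-1 and 16.0, 15.7 and 16.1 FPKM in *RRM2*-OE-TPC-1 (log2 fold change 1.51 ± 0.0502). In *POLH* and *DDB2* alike, the lowest *RRM2*-OE-TPC-1 library stood clear of the highest TPC-1 library. *ASCC3*, a helicase of alkylation repair (chr6:100508194-100881372, minus strand), had 6.52, 6.85 and 6.86 FPKM in TPC-1 and 15.8, 15.0 and 15.3 FPKM in *RRM2*-OE-TPC-1 (log2 fold change 1.18 ± 0.0436). The adjusted p of these 3 genes in limma lay between 1.76e-07 (*DDB2*) and 3.05e-07 (*POLH*), and none of their groups overlapped. *XPC*, which also recognises damage in nucleotide excision repair, went from 6.54 ± 0.490 to 10.6 ± 0.698 FPKM (log2 0.69). Its value is uncertain, because 318 of its 4798 exonic bases are shared on the opposite strand with *LSM3*, which went from 5.72 to 11.8 FPKM, and 1140 with *AC093495.1*. The kit marks strand, but whether the counting used it is not stated.

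Apoptosis and its restraint took in 13 genes, of which 12 were tested, 5 were called higher and 1 lower. Of all tested genes, 4.48% were called higher and 6.97% lower. *AEN*, a nuclease that acts in apoptosis (chr15:88621296-88632282, plus strand) and the gene with the closest match to the p53 motif in its window, had 10.8, 9.08 and 9.48 FPKM in TPC-1. It had 29.6, 27.1 and 27.6 FPKM in *RRM2*-OE-TPC-1, a log2 fold change of 1.52 ± 0.0672 (SE; limma, adjusted p = 6.50e-07). The lowest *RRM2*-OE-TPC-1 library was thus well above the highest TPC-1 library. *RPS27L*, a ribosomal protein paralog (chr15:63125872-63158021, minus strand), had 5.75, 5.14 and 5.53 FPKM in TPC-1 and 14.5, 14.8 and 15.6 FPKM in *RRM2*-OE-TPC-1 (log2 1.43, limma, adjusted p = 3.43e-07). It is a close paralog of *RPS27*, and reads that both share make its level uncertain. *CYFIP2*, a subunit of the WAVE actin regulatory complex (chr5:157266079-157395595, plus strand), had 2.92, 2.82 and 2.88 FPKM in TPC-1 and 7.82, 7.43 and 7.49 FPKM in *RRM2*-OE-TPC-1 (log2 1.37, limma, adjusted p = 4.18e-07). Both groups were tight, and of its 10498 exonic bases 62 are shared with *ADAM19* on the opposite strand.

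*TRIAP1* and *EDA2R* lay close to the fold threshold. *TRIAP1*, a mitochondrial protein that restrains apoptosis (chr12:120443961-120446412, minus strand), had 13.9, 14.8 and 14.4 FPKM in TPC-1 and 30.7, 29.9 and 28.9 FPKM in *RRM2*-OE-TPC-1. Its log2 fold change was 1.05 ± 0.0397 (SE; limma, adjusted p = 3.02e-07), and it was 0.99 when values were scaled to library totals or fitted with voom. *EDA2R*, the receptor for ectodysplasin A2 (chrX:66595637-66639298, minus strand), had 5.51, 5.95 and 4.68 FPKM in TPC-1 and 9.90, 11.5 and 11.3 FPKM in *RRM2*-OE-TPC-1. Its log2 fold change was 1.01 ± 0.0961 (limma, adjusted p = 3.53e-05). Without TPC-1 replicate 3 it was 0.92, without *RRM2*-OE-TPC-1 replicate 2 it was 0.97 and without replicate 3 it was 0.98, and with all libraries it was 0.95 with library totals as the scale, 0.97 with voom and 0.90 with a pseudocount of 1. The test against a change of 1 called neither *TRIAP1* nor *EDA2R*.

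The gene that went the other way was *TP53I11*, a p53-induced gene first linked to apoptosis (chr11:44885903-44951306, minus strand). It had 12.2, 10.7 and 10.5 FPKM in TPC-1 and 4.27, 4.32 and 4.39 FPKM in *RRM2*-OE-TPC-1. The groups did not overlap, and it fell by 1.34 ± 0.0649 on the log2 scale (SE; limma, adjusted p = 1.00e-06), or 2.53-fold. It shares 74 of its 7345 exonic bases with *TSPAN18* on the opposite strand.

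The other tested genes of this group differed by less. *PHLDA3*, a repressor of Akt, was the most abundant of them and went from 34.2 ± 0.322 to 67.5 ± 5.58 FPKM (SD, n = 3), a log2 fold change of 0.98 (95% interval 0.85 to 1.10) that stopped just short of the threshold and was 1.02 without *RRM2*-OE-TPC-1 replicate 3. The values for *PIDD1*, which assembles a caspase-activating complex, were 2.40 ± 0.162 and 3.88 ± 0.364 FPKM (log2 0.67), and 107 of its 5869 exonic bases are shared with the abundant *RPLP2* (151 FPKM on average) on the opposite strand. *PERP*, a tetraspan protein of desmosomes, went from 18.6 ± 1.22 to 26.2 ± 1.41 FPKM (log2 0.49). *APAF1*, the scaffold of the apoptosome, went from 4.20 ± 0.557 to 5.81 ± 0.383 FPKM (log2 0.46), and *TP53INP1*, a p53-induced nuclear protein, from 16.3 ± 0.927 to 21.7 ± 0.258 FPKM (log2 0.41). These 5 genes passed the adjusted p only. *NINJ1*, which ruptures the plasma membrane of dying cells, had 20.6, 19.3 and 18.8 FPKM in TPC-1 and 19.0, 19.7 and 20.4 FPKM in *RRM2*-OE-TPC-1. The groups overlapped, and the log2 difference of 0.01 had a 95% interval of −0.10 to 0.12 (limma, adjusted p = 0.838). *CDIP1*, a proapoptotic protein of low abundance here, was not tested, with 0.281, 0.223 and 0.103 FPKM in TPC-1 and 0.308, 0.492 and 0.544 FPKM in *RRM2*-OE-TPC-1, or 43 reads in all against 92.

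**Figure D2:**
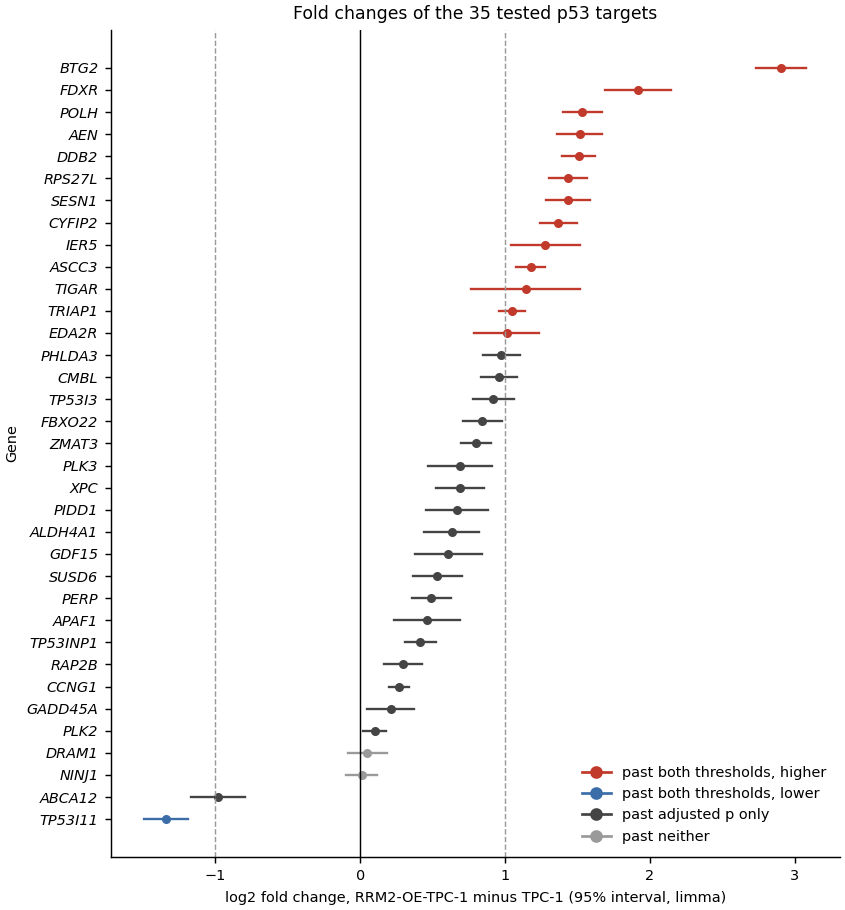
Log2 fold change of *RRM2*-OE-TPC-1 against TPC-1 for the 35 tested p53 targets, in order of size. Points are limma estimates on log2(FPKM + 0.1), bars are 95% intervals and dashed lines mark a change of 1 in either direction. The genes run from −1.34 (*TP53I11*) to 2.91 (*BTG2*) and *NINJ1* and *DRAM1* have intervals that include 0.

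The 6 genes of metabolism and redox balance were all higher by adjusted p, and 3 were called, beside 34.9% and 4.48% of all tested genes. *FDXR*, the mitochondrial reductase that feeds electrons to ferredoxin (chr17:74862497-74873031, minus strand), had 4.75, 3.80 and 4.78 FPKM in TPC-1 and 17.9, 17.8 and 15.4 FPKM in *RRM2*-OE-TPC-1. TPC-1 replicate 2 and *RRM2*-OE-TPC-1 replicate 3 were the low libraries of their groups, and the log2 fold change of 1.92 ± 0.0992 (SE; limma, adjusted p = 1.37e-06) came second after *BTG2*. *SESN1*, a sestrin that restrains mTORC1 (chr6:108986437-109094819, minus strand), had 2.55, 2.42 and 2.40 FPKM in TPC-1 and 6.40, 6.99 and 7.01 FPKM in *RRM2*-OE-TPC-1 (log2 1.43 ± 0.0659, limma, adjusted p = 7.84e-07). Its level per length was low, and the groups were nonetheless separate by more than 3 FPKM.

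*TIGAR*, a fructose bisphosphatase (chr12:4307763-4354593, plus strand), was the lowest of the tested genes, with 0.433, 0.311 and 0.375 FPKM in TPC-1 and 0.930, 0.916 and 0.969 FPKM in *RRM2*-OE-TPC-1. These values rest on 74 reads over the TPC-1 libraries and 179 over the *RRM2*-OE-TPC-1 libraries. The log2 fold change was 1.14 ± 0.162 (SE; limma, adjusted p = 0.000360), and it was 0.50 with a pseudocount of 1. The test against a change of 1 did not call *TIGAR*. *CMBL*, a hydrolase, went from 10.2 ± 0.728 to 19.8 ± 0.128 FPKM (log2 0.96, and 1.01 without TPC-1 replicate 2), and *TP53I3*, a quinone oxidoreductase, from 5.55 ± 0.332 to 10.6 ± 0.519 FPKM (log2 0.92). *ALDH4A1*, an enzyme of proline breakdown, went from 1.77 ± 0.0920 to 2.79 ± 0.0847 FPKM (log2 0.63). These last 3 genes passed the adjusted p only, and *TP53I3* shares 80 of its 2312 exonic bases with *FAM228B* on the opposite strand.

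Of the 3 genes tied to autophagy and the lysosome, 2 were tested and none was called. Of all tested genes, 4.48% were called higher and 6.97% lower. *SUSD6*, a membrane protein with a sushi domain, went from 3.16 ± 0.174 to 4.61 ± 0.261 FPKM (log2 0.53) and passed the adjusted p. *DRAM1*, a lysosomal membrane protein that promotes autophagy, had 9.86, 10.9 and 11.1 FPKM in TPC-1 and 10.8, 10.7 and 11.5 FPKM in *RRM2*-OE-TPC-1. Its groups overlapped, and the log2 difference of 0.05 had a 95% interval of −0.08 to 0.18 (limma, adjusted p = 0.469). *SPATA18*, which takes part in mitochondrial quality control, was close to silent, with 0.0364, 0.108 and 0.0508 FPKM in TPC-1 and 0.0140, 0 and 0.0254 FPKM in *RRM2*-OE-TPC-1. It had 16 reads in all against 3 and was not tested.

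Of the other 5 genes, 4 passed the adjusted p upward and 1 downward, beside 34.9% and 32.7% of all tested genes. None was called, beside 4.48% of all tested genes called higher and 6.97% lower. *ZMAT3*, an RNA-binding zinc finger protein, went from 6.61 ± 0.194 to 11.6 ± 0.136 FPKM (log2 0.80) and *FBXO22*, a substrate receptor of a ubiquitin ligase, from 3.76 ± 0.183 to 6.83 ± 0.136 FPKM (log2 0.84). *GDF15*, a secreted stress cytokine, went from 14.6 ± 2.10 to 22.1 ± 1.29 FPKM (log2 0.61), and *RAP2B*, a small GTPase, from 5.05 ± 0.0922 to 6.22 ± 0.302 FPKM (log2 0.30). *ABCA12*, a lipid transporter best known from keratinocytes, was lower, with 4.71, 5.34 and 4.69 FPKM in TPC-1 and 2.39, 2.61 and 2.31 FPKM in *RRM2*-OE-TPC-1. The groups were apart by about 2 FPKM, and the log2 difference of −0.98 ± 0.0820 (SE; limma, adjusted p = 1.69e-05) lay just inside the fold threshold. It crossed that threshold with values scaled to library totals (−1.04), and also without TPC-1 replicate 1 (−1.01), TPC-1 replicate 3 (−1.01) or *RRM2*-OE-TPC-1 replicate 2 (−1.03).

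The calls fell mostly on genes with a low level in wild strain cells. Of the 23 tested p53 targets under 10 FPKM in TPC-1, 12 (52.2%) were called higher, beside 5.36% of all tested genes at that level. Of the 12 at 10 FPKM or more, 1 (8.33%), *TRIAP1*, was called higher, beside 2.55%. The median log2 fold change was 1.01 in the first class and 0.34 in the second. A low level in TPC-1 is itself one term of the fold change, so both classes are given as a description.

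**Figure D3:**
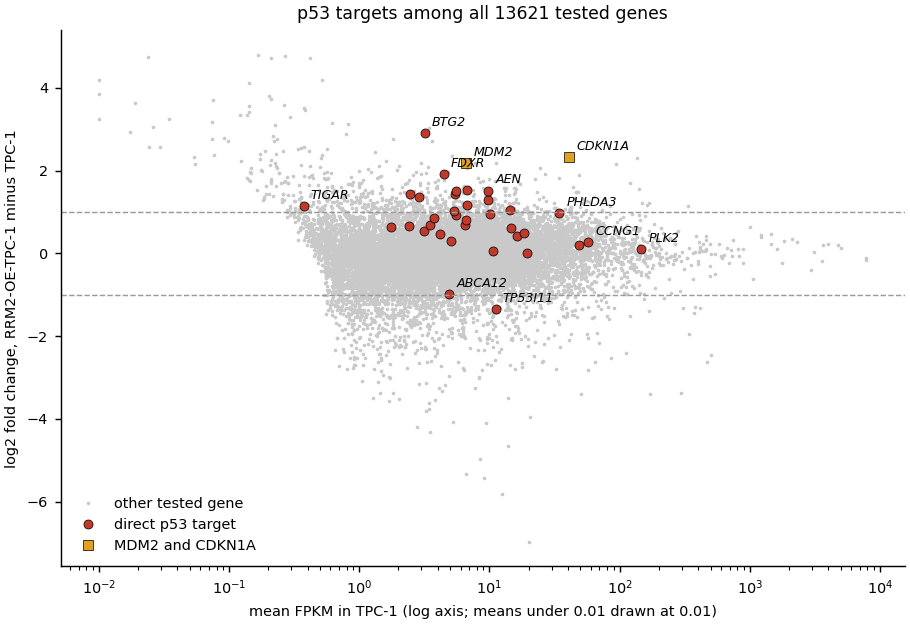
Log2 fold change against mean FPKM in TPC-1 (log axis) for all 13621 tested genes. Red circles are the 35 tested p53 targets, yellow squares are *MDM2* and *CDKN1A*, and dashed lines mark a change of 1 in either direction. *BTG2* stands highest among the red circles at 2.91, while *PLK2*, the most abundant, sits near 0.

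To place these genes in their pathway, 22 regulators of p53 were examined, of which 20 were tested. *TP63* and *TP73*, transcription factors of the p53 family, were at or near 0 in the 6 libraries. The ligase *MDM2* had 6.20, 6.94 and 6.79 FPKM in TPC-1 and 31.5, 28.8 and 30.4 FPKM in *RRM2*-OE-TPC-1 (log2 fold change 2.17 ± 0.0553, limma, adjusted p = 5.11e-08), and 133 of its 13284 exonic bases are shared with *CPM* on the opposite strand. Its partner *MDM4*, which also inhibits p53, had 11.0, 11.0 and 10.3 FPKM in TPC-1 and 5.71, 5.43 and 5.46 FPKM in *RRM2*-OE-TPC-1 (log2 difference −0.95). In TPC-1 *MDM4* was thus the more abundant of the pair, and in *RRM2*-OE-TPC-1 *MDM2* was.

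Among the regulators, *MDM2* and *WRAP53* (log2 1.16) were called higher (10%, beside 4.48% of all tested genes) and none was called lower (beside 6.97%). The value of *WRAP53* is uncertain because of exons on the opposite strand. Of the 20, 7 passed the adjusted p upward (35%, beside 34.9% of all tested genes) and 8 downward (beside 32.7%). The shares past the adjusted p are near those of all genes, and the values that follow describe single genes. *PPM1D*, the phosphatase that turns the response off, went from 3.03 ± 0.356 to 5.60 ± 0.323 FPKM (log2 0.87). The checkpoint kinases *CHEK1* (log2 0.64) and *ATR* (log2 0.52) were higher by adjusted p, and *ATM* (log2 −0.28) was lower. The acetyltransferases *CREBBP* (log2 −0.66) and *EP300* (log2 −0.58) and the MDM2 inhibitor *CDKN2A* (log2 −0.49) passed the adjusted p downward. *CHEK1*, *ATM* and *CDKN2A* share 80, 143 and 341 exonic bases with *STT3A*, *NPAT* and *CDKN2B-AS1*, which leaves some uncertainty in their values. The median log2 fold change of the 20 tested regulators was 0.02, beside 0.80 for the 35 targets.

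A further 20 p53 targets from the families set aside were examined, and 17 of them were tested. Of these, 7 were called higher and 1 lower, beside 4.48% and 6.97% of all tested genes. The adjusted p was passed upward by 14 and downward by 2, beside 34.9% and 32.7% of all tested genes. The median log2 fold change was 0.67. The genes called higher included the kinase inhibitor *CDKN1A* (41.2 ± 1.33 to 208 ± 4.45 FPKM, log2 2.33), the growth factor *KITLG* (log2 2.08), the death receptor *FAS* (log2 1.66), the matrix protein *THBS1* (log2 1.21), *BAX* (log2 1.09) and *RRM2B* (log2 1.02). *FAS* is uncertain, since 380 of its 4253 exonic bases are shared on the opposite strand with *ACTA2*, which went from 0.143 to 2.53 FPKM. *RRM2B* was at 0.96 with library totals as the scale and at 0.98 without replicate 1 of either group, which ended its call. A pseudocount of 1 ended that of *WRAP53* (0.90). The test against a change of 1 called none of *BAX*, *RRM2B* and *WRAP53*. *CCNG2*, a paralog of *CCNG1*, fell by 1.50 on the log2 scale, and *SESN2*, a paralog of *SESN1*, passed the adjusted p downward (log2 −0.75). *LIF* had a log2 difference of 0.05, with a 95% interval of −0.05 to 0.16 (limma, adjusted p = 0.334).

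**Figure D4:**
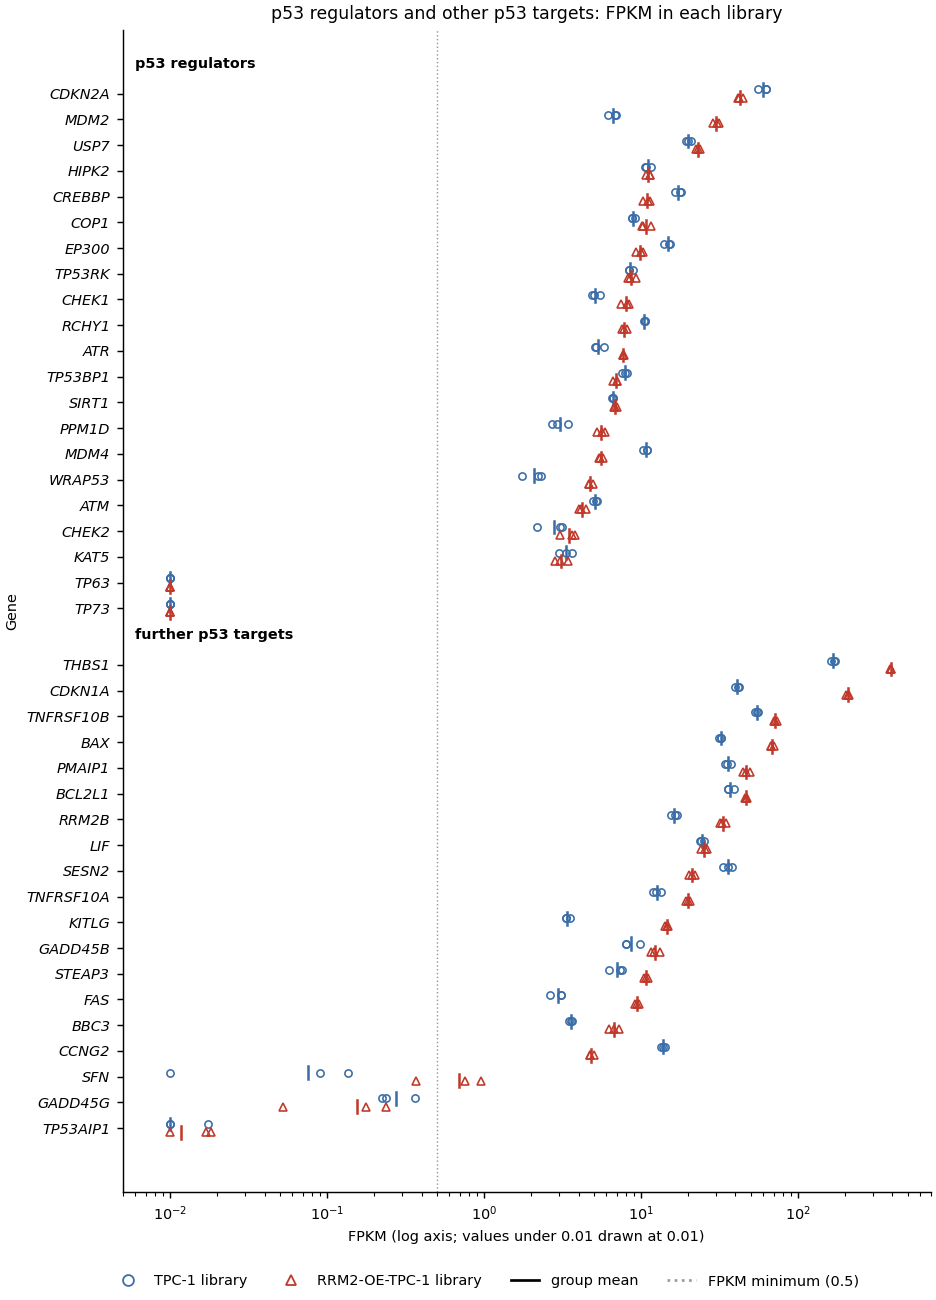
FPKM of the p53 regulators and further p53 targets reported here in each library, on a log axis with values under 0.01 drawn at 0.01. Circles are TPC-1 libraries, triangles are *RRM2*-OE-TPC-1 libraries, short vertical lines are group means and the dotted line is the minimum of 0.5 FPKM. *MDM2* and *CDKN1A* lie far to the right in *RRM2*-OE-TPC-1, whereas *MDM4*, *CCNG2* and *SESN2* lie to the left.

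**Figure D5:**
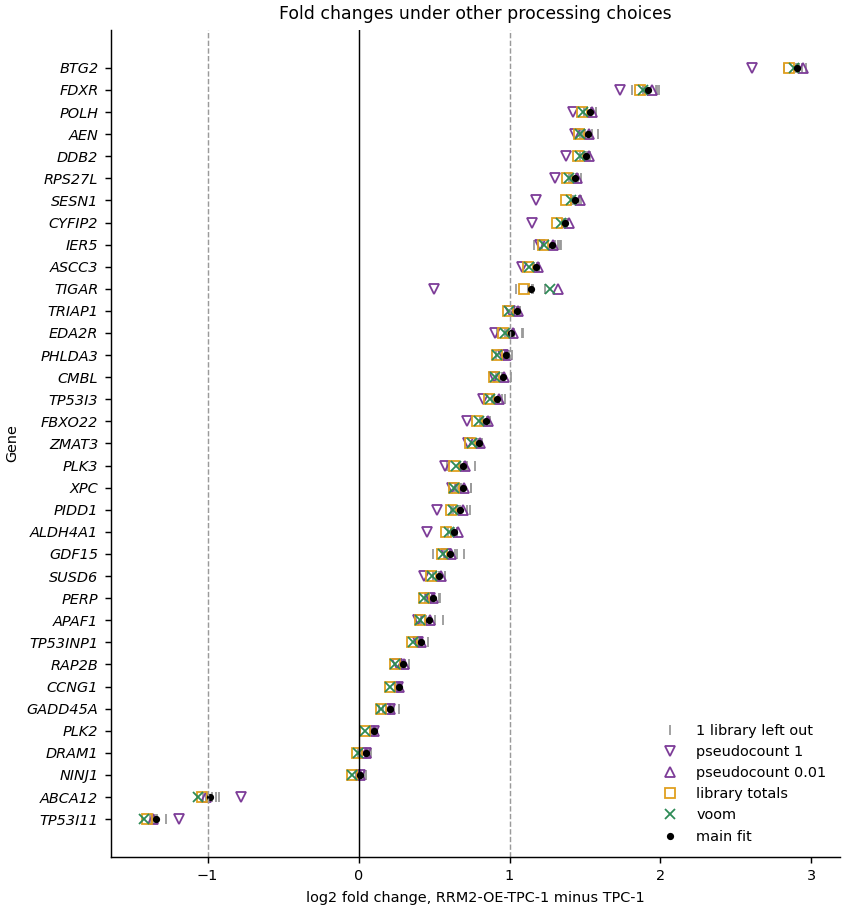
Log2 fold change of the 35 tested p53 targets under the main fit (black dots), with 1 library left out (grey ticks), with pseudocounts of 1 and 0.01, scaled to library totals and fitted with voom. Dashed lines mark a change of 1 in either direction. Most genes keep to a narrow range, *TIGAR* runs from 0.50 to 1.32, and *NINJ1* and *DRAM1* lie on both sides of 0.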

How the data were processed

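mRNA of 3 wild strain TPC-1 and 3 *RRM2*-OE-TPC-1 libraries was sequenced. Before library construction, poly(A) RNA was selected according to the methods, but the labels speak of rRNA depletion followed by RNase R. The submitters' processing notes name HISAT2 2.0.5, featureCounts 1.5.0, DESeq2 1.20.0 and GRCh38.p14. The authors divided read counts by gene length and depth and deposited FPKM. The annotation and the strand setting of the counting are not given in the sources used here, and all 58735 identifiers and positions were those of GENCODE 29. Multiplied by gene length, 100% of the FPKM values were whole multiples of 1 read (tolerance 0.05), which gave the reads per gene. That total, 14317091 to 17084067 per library, sets the precision of low genes.

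Genes with at least 0.5 FPKM and 10 reads in 3 libraries (13621) were tested with limma 3.58.1 in R 4.3.3 on log2(FPKM + 0.1), with a variance trend and Benjamini-Hochberg adjustment over all of them. The pseudocount understates changes of low genes. The procedure was tested on simulated data. The p53 targets, the pathway list and the markers were chosen with earlier results of these data known, and no list was given a test. Some genes of the pathway and marker lists entered the counts and are not reported here by name. Each of the 37 targets is named, with values per library for those that were called, lower, past neither threshold or not tested. Exon overlaps were taken from GENCODE 29 with genes of at least 0.5 FPKM on average, and promoter windows from RefSeq. The alternatives were other filters, pseudocounts and scalings, voom on the recovered reads, a test against a change of 1, a replicate block and leaving out each library.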

Additional observations from a re-analysis of the deposited data

How the results depend on the processing

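Under the other settings tried, 9 to 14 of the p53 targets were called higher (13 in the fit reported above). The calls over all genes moved as well. Of 13621 tested genes, 610 were called higher in the fit reported above and 235 in the test against a change of 1. The number was 303 with a pseudocount of 1, 652 with 0.01, 537 with library totals and 579 with voom. It was 600 to 632 with 1 library left out. Without the filter it was 920 of 30958 genes, and with the FPKM minimum alone 683 of 14997. The number of targets called lower was 1, or 2 with library totals as the scale, with voom or with a pseudocount of 0.01, and 1 to 2 with 1 library left out, because *ABCA12* then passed a change of −1. Of all 13621 tested genes, 1098 were called lower with library totals, 1214 with voom and 1072 with a pseudocount of 0.01. With 1 library left out, 966 to 1003 were. The median log2 fold change was 0.74 with library totals, 0.62 with a pseudocount of 1, 0.75 with voom and 0.78 to 0.82 with 1 library left out. In a test against a change of 1, 10 of the targets passed the adjusted p. In that test, 235 of all 13621 tested genes were called higher and 383 lower. The pathway genes called lower numbered 2 with library totals and with voom, where *MDM4* joined *CCNG2*. An alternative chosen after seeing the data left out genes that reached the minimums only in the higher group, and the median was then 0.74.

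Library totals and voom each moved the median of all genes from 0.01 to −0.05, and differences near 0 then changed sign. The depth behind the deposited FPKM, which set the scale of the fit reported above, differed between the groups. It was 1.03 to 1.05 times the reads on genes in TPC-1 and 0.997 to 1.01 times in *RRM2*-OE-TPC-1. With library totals *NINJ1* was at −0.0461, *DRAM1* at −0.00722, *HIPK2* at −0.0393, *TP53RK* at −0.0388 and *LIF* at −0.00540. With voom they were at −0.0464, −0.00680, −0.0392, −0.0421 and −0.00310. With 1 library left out, *NINJ1* ran from −0.0152 to 0.0479, *DRAM1* from −0.00253 to 0.0815, *HIPK2* from −0.00430 to 0.0583 and *TP53RK* from −0.0283 to 0.0518. The libraries behind the values below 0 were replicate 3 of either group for *NINJ1*, TPC-1 replicate 1 for *DRAM1* and *HIPK2*, and *RRM2*-OE-TPC-1 replicate 1 for *TP53RK*. The cause was not tested.

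*IER5*, *TRIAP1*, *EDA2R* and *TIGAR* lost their call under at least 1 setting, while *CMBL* (TPC-1 replicate 2 left out) and *PHLDA3* (*RRM2*-OE-TPC-1 replicate 3 left out) gained one. *PLK2* lost its adjusted p under 8 settings and *GADD45A* under 4, and *TP53BP1* lost it without *RRM2*-OE-TPC-1 replicate 3. The replicate numbers are only shared numbers in the labels. Deviations of same-numbered libraries had correlations of −0.0105, −0.0060 and −0.055, and with a replicate block 13 targets were called higher, 1 lower and 32 passed the adjusted p. Of all 13621 tested genes, 610 were called higher and 956 lower with that block. Depth limits *CDIP1*, *SPATA18* and *TIGAR*, whose reads over a group came to 179 or fewer.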

Other observations

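Some paralogs differed in opposite directions and others in the same direction. The difference between *SESN1* and *SESN2* in log2(FPKM + 0.1) was −3.81 ± 0.0736 for TPC-1 and −1.62 ± 0.139 for *RRM2*-OE-TPC-1 (SD, n = 3), and that between *CCNG1* and *CCNG2* was 2.04 ± 0.0130 and 3.80 ± 0.0452. For *MDM2* and *MDM4* it was −0.69 ± 0.114 and 2.43 ± 0.0361, so that the order of the pair turned, whereas *SESN2* and *CCNG1* stayed the more abundant of theirs. The difference between *PLK3* and *PLK2* was −5.35 ± 0.187 and −4.76 ± 0.0618, with log2 fold changes of 0.69 and 0.10. Those of *GADD45A* and *GADD45B* were 0.21 and 0.51, and those of *TNFRSF10A* and *TNFRSF10B* were 0.67 and 0.39. The value of *TNFRSF10A* is uncertain, because 224 and 266 of its 2951 exonic bases are shared with *TNFRSF10A-AS1* and *AC100861.1* on the opposite strand. *TNFRSF10B* shares 67 of its 5158 exonic bases with *RHOBTB2* on the opposite strand. The paralog pairs were set side by side after their values were seen.

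The gain in summed expression of the p53 targets came from many genes. The 13 genes called higher summed to 77.1 ± 2.63 FPKM in TPC-1 and 216 ± 3.78 FPKM in *RRM2*-OE-TPC-1 (SD, n = 3). Without *PLK2*, the most abundant gene, all targets summed to 366 ± 8.64 and 605 ± 12.3 FPKM. The largest single gain was that of *PHLDA3*, at 33.3 FPKM, and it passed the adjusted p alone. The highest *RRM2*-OE-TPC-1 value belonged to replicate 1 in 14 of the 35 tested genes, to replicate 2 in 4 and to replicate 3 in 17.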
